A study of Mus musculus with 21 samples.

Results

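The sham-operated libraries of neutrophils (polymorphonuclear cells, PMNs) and renal tubular epithelial cells (TECs) were compared to describe which genes define each cell type in mice whose kidneys were not clamped, and how much RNA of each cell type appeared in libraries of the other. All libraries labelled as sham were taken, which gave 11 of the 21 libraries of the series. They comprised 5 of PMNs (2 after a control procedure, 3 after remote ischemic preconditioning, RIPC) and 6 of TECs (3 control, 3 RIPC). The mice of all 4 groups were wild type, described in the methods as male C57BL/6 mice of 8 to 12 weeks, and cells were taken 24 hours after surgery. In sham surgery the kidneys were exposed without clamping the renal pedicles. RIPC was repeated inflation of a cuff around a hind limb, and the control procedure was inflation to a pressure that left the limb perfused. The labels give blood as the source of the PMNs and kidney as that of the TECs. The methods describe a flow cytometry gate on Ly6G for neutrophils and magnetic beads against prominin-1 for tubular cells. They say that the RNA came from sorted cells, but not by which isolation.

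Neutrophils are short-lived granulocytes of the innate immune system. They carry granules of proteases and antimicrobial proteins that are made in a fixed order during maturation in the bone marrow, a multisubunit NADPH oxidase that produces superoxide, and receptors for chemokines, formyl peptides and antibodies. The proximal tubule reabsorbs most of the filtered phosphate, glucose, amino acids and protein through transporters and endocytic receptors of its brush border, and it makes glucose and oxidizes fatty acids to fuel this transport.

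Reads were summed per gene over both deposited files of a library. PMN libraries held 20881334 to 23517048 reads and TEC libraries 25456279 to 51624602. For 0 counted reads, 3 reads was taken as the upper limit (95%, Poisson). It corresponded to 0.0684 to 0.162 CPM (counts per 1000000 reads, scaled with edgeR's TMM factors). Since PCR copies were not told apart by molecular identifiers, such limits cover counting error only. Genes with more than 10 reads numbered 13527 to 21167 in PMN libraries, with the most in control 1, and 11783 to 19417 in TEC libraries, with the fewest in control 2. Log2 profiles correlated across genes at r = 0.618 to 0.703 between PMN libraries, 0.763 to 0.869 between TEC libraries and 0.438 to 0.633 between the cell types. The common biological coefficient of variation in edgeR was 1.65. In simulated counts with a spread of this size, few genes were changed. The base level of each gene was its mean over PMN and TEC libraries together, so the simulation differs from the real libraries in this respect. Where each gene had its own spread, edgeR called unchanged genes more often than the adjusted threshold states. It did not where the spread followed the level. Most calls of DESeq2 were unchanged genes there, a share that depends on how many genes change and was not measured for the real libraries. Adjusted p-values near the threshold and counts from DESeq2 carry this limit. The study calls the libraries of a group biological replicates, but the labels do not tie them to single mice, and p-values measure the spread between these libraries, which may in part be technical.

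The 4 marker genes separated the libraries by cell type. S100a8 (chr3:90668978-90670035, GRCm38), a subunit of calprotectin that is abundant in the neutrophil cytosol, stood at 10130.2, 4327, 4971, 4216 and 2475 CPM in the PMN libraries (control 1, control 2, RIPC 1, RIPC 2 and RIPC 3, the order used throughout). In TECs its lowest, median and highest levels were 0, 0.158 and 2.30 CPM. The groups did not overlap, and the log2 fold change (PMNs minus TECs, averaged over RIPC and control) was 13.71 ± 1.30 (SE), with an adjusted p of 5.2e-05 in edgeR's quasi-likelihood test. Gpx3 (chr11:54902453-54910377), the secreted glutathione peroxidase of the proximal tubule, ran the other way, but PMN libraries were far from free of it. Its level was 2008, 14317, 7631, 7364 and 3554 CPM in PMNs and 35056, 58649 and 74923 CPM (lowest, median, highest) in TECs. Every TEC library lay above every PMN library, the log2 fold change was -3.02 ± 0.46 (adjusted p = 0.00187), and the mean in TECs was 8.31-fold that in PMNs. Slc34a1 (chr13:55398187-55415592), the main phosphate transporter of the brush border, stood at 103, 1343, 698, 497 and 297 CPM in PMNs against 2433, 4219.8 and 5642 CPM in TECs. These groups did not overlap either (log2 fold change -2.82 ± 0.58, adjusted p = 0.0138), but without TEC control 2 the value was -2.83 with an adjusted p of 0.0633. In bulk samples, fewer cells of a type and less RNA per cell cannot be told apart.

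The fourth marker, Cd74 on chromosome 18, encodes the invariant chain of MHC class II and is known from antigen-presenting cells such as macrophages, dendritic cells and B cells rather than from resting neutrophils. Its levels in the PMN libraries were 11030.3, 12643, 17159.8, 20303 and 8816 CPM. In TECs its lowest, median and highest levels were 0.217, 32.4 and 62.8 CPM. The groups did not overlap (log2 fold change 8.83 ± 1.00, adjusted p = 0.000221). The PMN libraries thus held the neutrophil marker and an antigen-presentation marker together.

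**Figure D1:**
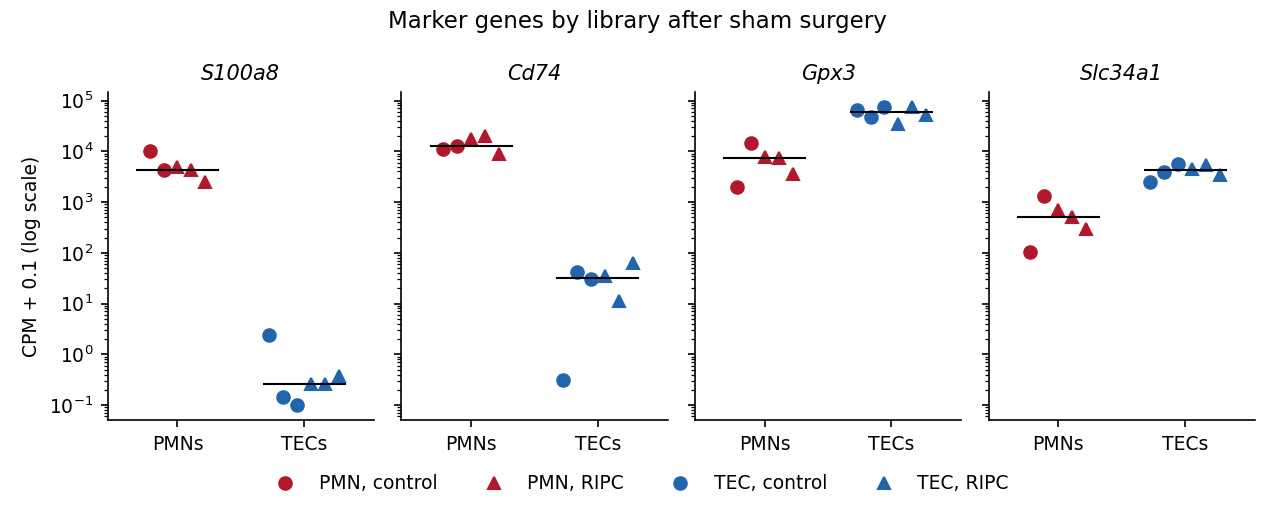
Levels of S100a8, Cd74, Gpx3 and Slc34a1 in each sham library, as CPM plus 0.1 on a log axis, with 1 point per library (circles control, triangles RIPC, red PMNs, blue TECs) and a line at the median. S100a8 in TECs reaches at most 2.30 CPM, whereas Gpx3 in PMNs lies between 2008 and 14317 CPM.

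Across all genes, 864 of 25241 genes tested (3.42%) differed between PMNs and TECs, of which 401 were higher in PMNs and 463 higher in TECs, and 4757 genes had an unadjusted p under 0.05. The sizes of these differences were unequal. Among the genes higher in PMNs the median log2 fold change was 8.63 (quartiles 6.13 and 10.91), and 50 had a mean over 10 CPM in TECs. For the genes higher in TECs the median size was 5.08 (quartiles 3.10 and 7.77), and 216 had a mean over 10 CPM in PMNs. All PMN libraries lay above all TEC libraries for 1206 genes (4.78% of those tested), of which 310 (1.23%) were past the threshold, and all TEC libraries lay above all PMN libraries for 1158 genes (4.59%), of which 383 (1.52%) were past it. The count of 864 depended on single TEC libraries. It was 424 without RIPC 2, 460 without RIPC 1, 479 without control 2, 502 without control 3 and 509 without RIPC 3, and it was 495 without the 2 libraries with the most and the fewest genes, PMN control 1 and TEC control 2.

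Of 64 genes in 6 lists of neutrophil genes, 58 passed the filter on low counts, 43 were higher in PMNs and 0 higher in TECs, where 1.59% of all genes tested were higher in PMNs. Without PMN control 1 and TEC control 2 the count was 35 of 59, and without TEC control 2 alone it was also 35. Among S100 and other cytosolic proteins, 9 of 12 were higher in PMNs, with a median log2 fold change of 9.23 over the list (7.30 with genes without a read in TECs at their lower bound) against 0.05 over all genes tested. S100a9, the partner of S100a8 in calprotectin, stood at 8499, 3698, 4453, 3219 and 2202 CPM in PMNs and at no more than 2.60 CPM in TECs (log2 fold change 13.67, adjusted p = 3.75e-05). Retnlg, a resistin-like secreted protein of neutrophils, was the gene with the largest fitted difference. Its levels were 3728, 1131, 1321, 1334 and 944 CPM in PMNs, and 1 read was counted in the 6 TEC libraries together. The fitted log2 fold change was 17.48 ± 0.97 (adjusted p = 5.35e-06), a value that depends on the prior count. The ratio to the pooled TEC level was 277765, with a 95% exact Poisson interval of 49853 to 10971100.0. Wfdc21, a whey acidic protein family member, and Stfa2l1, a cathepsin inhibitor of the stefin family, had 0 reads in all TEC libraries. Against the limit of 3 reads per library they were at least 746-fold and at least 138-fold higher in PMNs. S100a11, which is also made by many epithelia, was higher in PMNs at 278 to 671 CPM against 19.2 to 119 CPM in TECs (log2 fold change 3.34, adjusted p = 0.00268). G0s2, an inhibitor of lipolysis, did not pass the threshold (1.65, adjusted p = 0.137, but 0.0447 without TEC control 1 and 0.0247 in the Wald test of DESeq2).

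Granule genes were unequal in level. Of 5 genes of primary (azurophil) granules, which are made first, 2 were tested and 0 were called in edgeR, 0 at an unadjusted p under 0.05 and 0 in DESeq2. Mpo (myeloperoxidase) and Elane (neutrophil elastase) had 0 reads in all 5 PMN libraries, Ctsg (cathepsin G) was seen in RIPC 1 alone at 1.47 CPM, and Prtn3 (proteinase 3) in control 1 alone among PMNs at 24.5 CPM. Of 11 genes of secondary and tertiary granules, 10 were higher in PMNs, with a median log2 fold change of 11.54 (11.15 at the bounds), and 7 were called without TEC control 2. Mmp8, the neutrophil collagenase, stood at 2385, 335, 198, 274 and 162 CPM in PMNs and at most 0.0912 CPM in TECs (14.22 ± 1.13, adjusted p = 2.46e-05). Control 1 was the highest PMN library and RIPC 3 the lowest, and the groups did not overlap. The secondary granule genes that are made earlier were uneven among the PMN libraries. Ltf (lactoferrin) read 684, 0, 1.37, 0 and 34.0 CPM, and Camp (cathelicidin) 113, 0, 0, 0 and 31.9 CPM, both with 0 reads in TECs. Ngp, the neutrophilic granule protein, read 3152, 25.2, 0.0526, 35.1 and 147 CPM. Control 1 held the highest level of all 3, and for each of them at least 1 PMN library overlapped with TECs. Ltf was called (adjusted p = 0.0281) but not without PMN control 1 (adjusted p = 1), nor without any of the 6 TEC libraries in turn (0.0658 to 0.193). Ngp was called with an adjusted p of 0.00326, but this was 0.0687 without TEC control 2, and 0.126 without TEC control 2 and PMN control 1. Camp was not called (0.0652), but it was without PMN RIPC 1 (0.0354) or PMN RIPC 2 (0.0335) and with the replicate number as a block (0.0221). Without PMN control 2 its value was 12.71. Lyz2, lysozyme M, which monocytes and macrophages also express, stood at 2411, 5056, 8933, 9360.3 and 2254 CPM against at most 8.70 CPM in TECs (10.98, adjusted p = 0.00187). Its highest PMN libraries were RIPC 1 and RIPC 2, which were the highest for Cd74 as well, whereas S100a8 was highest in control 1.

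Of 22 surface receptor genes, 18 were higher in PMNs, with a median log2 fold change of 9.67, and 16 without TEC control 2. Ly6g, the antigen of the gate described in the methods, read 69.7, 74.6, 64.2, 18.5 and 43.1 CPM in PMNs and 0 in all TEC libraries, at least 466.5-fold higher. Because Ly6G may have been used to select the cells, it serves as a check of the label. Trem1, an activating receptor of neutrophils and monocytes, and Fcgr4, a receptor for IgG, also had 0 reads in TECs, and PMNs were at least 2520.3-fold and at least 1661-fold higher. Il1r2, the decoy receptor for interleukin-1, stood at 2544, 332, 745, 413 and 294 CPM against at most 0.389 CPM (12.62, adjusted p = 2.68e-05), and Tyrobp, the DAP12 signalling adaptor, at 1048, 1004, 1254, 1177 and 691 CPM against at most 2.28 CPM (13.77, adjusted p = 3.75e-05). Csf3r, the receptor for granulocyte colony-stimulating factor, was higher at 128 to 575 CPM against 0.0228 to 7.38 CPM (6.94, adjusted p = 0.00133). Cxcr2, the receptor by which neutrophils follow CXC chemokines, read 294, 141, 32.5, 158 and 159 CPM against 1.30 to 29.1 CPM. Its groups did not overlap, but it missed the threshold (2.97, adjusted p = 0.05). It passed in some alternatives and not in others. Among the former were the Wald test of DESeq2 (0.000714), DESeq2's size factors (0.0368) and the fit without PMN RIPC 1 (0.0219). Without PMN control 2 its value was 3.20. Itgal, an integrin chain, and the Toll-like receptors Tlr2 and Tlr4 had values of 5.61, 5.49 and 5.00 (adjusted p = 0.14, 0.129 and 0.204), each with at least 1 PMN library under 1 CPM. Without PMN control 1 the values of Tlr2 and Tlr4 turned to -1.70 and -0.87, so no direction is given for them, and Tlr2 passed the threshold without PMN control 2 (0.00427).

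Of 6 NADPH oxidase genes, 5 were tested and 4 were higher in PMNs. Among them were Ncf1 and Ncf4, cytosolic subunits, and Rac2, the hematopoietic Rac GTPase, with log2 fold changes of 8.94, 7.06 and 7.95. The call of Ncf4 was lost without TEC control 2 (adjusted p = 0.0831), TEC RIPC 1 (0.065) or TEC RIPC 3 (0.0615), and with an offset for transcript length (5.50, 0.0668). Cyba, the p22phox subunit that pairs with NADPH oxidases of many tissues, was present in both cell types at 442 to 1425 CPM in PMNs and 555 to 812 CPM in TECs (0.52, adjusted p = 0.51). Of 8 transcription factors of the neutrophil lineage, 6 were tested and 2 were higher. Mxd1, a MAX partner that is known to rise in maturing granulocytes, had a log2 fold change of 4.19 (adjusted p = 0.000507), and Spi1 (PU.1), which is shared with macrophages, 6.68 (adjusted p = 0.024). The call of Spi1 was lost without TEC control 2 (adjusted p = 0.15), TEC RIPC 1 (0.0728) or TEC RIPC 2 (0.0572), so that 1 gene of this list was then called. Cebpe, which drives secondary granule genes in progenitors, was seen in PMN control 1 alone at 9.44 CPM, and Gfi1 had 0 reads in all 11 libraries.

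Of 69 genes in 5 lists of tubular epithelial genes, 67 were tested, 24 were higher in TECs and 0 higher in PMNs, where 1.83% of all genes tested were higher in TECs. The count was 15 without TEC control 2, and 16 without TEC control 2 and PMN control 1, where 1 gene, Kap, was called higher in PMNs. Without PMN control 2 it was 46, and without any other library it was 18 to 34. Of 19 solute transporters of the proximal tubule 6 were higher in TECs, with a median log2 fold change of -2.81 (14 without PMN control 2 and 10 without PMN RIPC 1). Slc5a2, the glucose transporter SGLT2, stood at 31.6, 231, 16.0, 36.4 and 32.6 CPM in PMNs against 525, 1107 and 1643 CPM (lowest, median and highest) in TECs. The groups did not overlap (-4.14, adjusted p = 0.00237). Slc4a4, the basolateral bicarbonate cotransporter, and Slc13a1, the sulfate cotransporter, had values of -3.99 (adjusted p = 0.00187) and -3.10 (0.0132, and 0.106 without PMN control 1 and TEC control 2). Slc5a12, Slc6a19 and Slc22a6, carriers of lactate, neutral amino acids and organic anions, did not pass the threshold (-4.67, -3.22 and -1.41, with adjusted p = 0.0878, 0.0803 and 0.199). Slc5a12 and Slc6a19 passed it in the Wald test of DESeq2 (0.00385 and 0.00977) and without PMN RIPC 3 (0.0288 and 0.0124). So did Slc5a12 without PMN RIPC 2 (0.0312) and Slc6a19 without PMN RIPC 1 (0.0369). Without PMN control 2, the PMN library with the most tubular RNA, the values of Slc5a12, Slc6a19 and Slc22a6 were -7.61, -4.01 and -2.83. Of 11 endocytic and brush border genes tested 4 were higher in TECs (2 without TEC control 2, control 3, RIPC 1 or RIPC 2, and 7 without PMN control 2). Cubn (cubilin) had -3.34 (adjusted p = 0.00792), but -2.37 (0.0808) with an offset for transcript length. Anpep (aminopeptidase N) had -5.34 (adjusted p = 0.00789), but -3.33 (0.125) with 1 mean per cell type, a fit that does not tell RIPC and control apart. Lrp2 (megalin) overlapped between the groups (-2.35, adjusted p = 0.0517). It passed the threshold in some alternatives and not in others. Among the former were the Wald test of DESeq2 (0.00917), an offset for transcript length (0.0402), the replicate number as a block (0.0453) and the fit without TEC control 1 (0.0363). Without PMN control 2 its value was -3.63. Prom1, the antigen of the bead isolation, read 10.3, 86.5, 71.5, 10.6 and 14.3 CPM in PMNs against 19.3, 77.6 and 121 CPM in TECs, so that the groups overlapped (-0.82, adjusted p = 0.634, and 0.19 with an offset for transcript length).

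Among 20 genes of proximal tubule metabolism and secretion, 10 were higher in TECs, with a median log2 fold change of -2.89 (18 without PMN control 2). Besides Gpx3 they included Miox (inositol oxygenase), Fbp1 and Pck1 (gluconeogenesis), Ass1 and Gatm (arginine and creatine synthesis, Gatm without a call when PMN control 1 and TEC control 2 were left out, adjusted p = 0.0792) and Ndrg1, a stress-responsive gene that had the smallest adjusted p of the list. Ndrg1 stood at 66.8, 415, 324, 261 and 121 CPM in PMNs against 2828, 4999 and 6634 CPM in TECs. The groups did not overlap (-4.35 ± 0.55, adjusted p = 0.000457). Cyp24a1, the hydroxylase that degrades vitamin D, stood at no more than 2.16 CPM in PMNs, against 7.29 to 424 CPM in TECs (-7.23, adjusted p = 0.0209), and its call was lost without TEC control 1 (0.0537) or TEC control 2 (0.0675). Kap, the androgen-regulated protein of the male mouse proximal tubule, did not pass the threshold. It stood at 934, 8395, 4374, 4141 and 2355 CPM in PMNs and at 1327, 1782 and 4956 CPM in TECs (0.92, adjusted p = 0.318). The groups overlapped, and the direction turned to -0.30 without PMN control 2, whereas without PMN control 1 the value was 1.26 (adjusted p = 0.0336).

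Of 10 renal transcription factors, 3 were higher in TECs, but 1 with 1 mean per cell type or without TEC control 2, control 3, RIPC 1, RIPC 2 or RIPC 3, and 6 without PMN RIPC 1. Among them Hnf4a had a log2 fold change of -4.22 (adjusted p = 0.045). Its call was lost without any of the 6 TEC libraries in turn (adjusted p = 0.0717 to 0.127). Of 7 genes of epithelial junctions and keratins tested, Krt8 alone was higher in TECs (3 genes without PMN control 2). It stood at 5.21, 27.9, 0.105, 2.99 and 19.9 CPM in PMNs and at 198, 356 and 669 CPM in TECs, with no overlap (-5.05, adjusted p = 0.0176, and 0.0683 without TEC control 2).

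**Figure D2:**
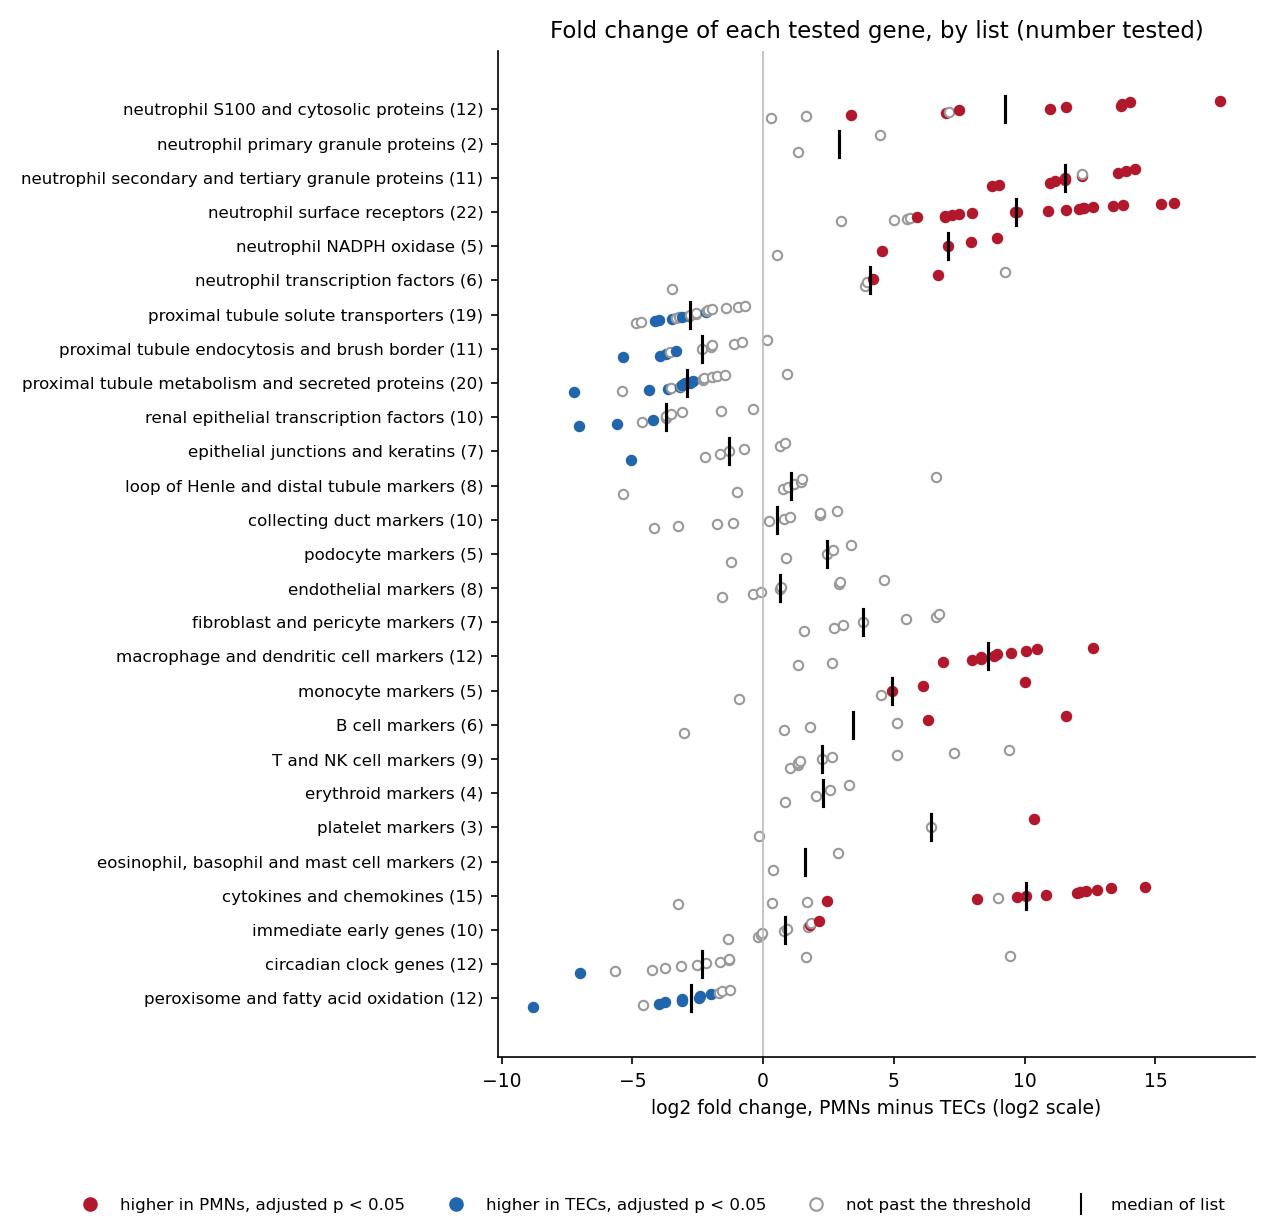
Log2 fold change (PMNs minus TECs) of each tested gene of each list, 1 point per gene, filled where the adjusted p was under 0.05 and open otherwise, with a bar at the list's median and the number tested in brackets. Neutrophil lists spread to 17.48, whereas the medians of the tubular lists lie between -3.72 and -1.29, and the bottom 4 lists were chosen after values had been seen.

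Genes were also taken from the whole table by rule. Those with the smallest adjusted p and no overlap were, in PMNs, Retnlg, Cxcl2, Mmp8, Plek and Il1r2. The rule takes genes of the PMN libraries as a whole, and the part of RNA from macrophages or other cells in them was not tested. Cxcl2, the chemokine that recruits neutrophils through Cxcr2, stood at 757, 576, 726, 508 and 346 CPM against at most 0.117 CPM in TECs (13.30 ± 0.93, adjusted p = 6.61e-06). Plek (pleckstrin), a protein kinase C substrate of blood cells, stood at 342, 227, 171, 315 and 128 CPM against at most 0.319 CPM (11.73, adjusted p = 2.58e-05). In TECs they were Angptl4, Nr1d1, Ndrg1, Adra2b and the uncharacterized BC024386. Angptl4, an inhibitor of lipoprotein lipase and a target of fasting signals, read 0.127, 0.0517, 0.105, 0.0949 and 0.324 CPM in PMNs and 121, 146 and 676 CPM in TECs. The groups did not overlap, and the fitted difference was the largest among the genes higher in TECs that are described here (-10.70 ± 1.04, adjusted p = 6.73e-05). Nr1d1 (REV-ERB alpha), a repressor of the circadian clock, read 0.0846, 0, 80.2, 19.3 and 71.6 CPM in PMNs and 174, 217 and 250.1 CPM in TECs (-6.99, adjusted p = 0.000351). With 1 mean per cell type the value was -2.65 and the call was lost (0.281), as it was for Adra2b (-4.34, 0.125). The 3 RIPC libraries of PMNs lay above both control libraries, without reaching the TEC range. Among abundant genes with an absolute log2 fold change of at least 5, TECs also had Prodh2 and Aldh4a1 (hydroxyproline and proline breakdown, -6.25 and -5.37), Nr1h4 (the bile acid receptor FXR, -6.16, not called without PMN control 1 and TEC control 2, 0.0732), Syne4 (a nuclear envelope protein, -8.02), Prr5 (a subunit of mTORC2, -8.30) and Osr2. Osr2, a zinc finger factor of kidney development, had reads in PMN RIPC 1 alone among PMNs (30.03 CPM) against 106 to 222 CPM in TECs (-9.34, adjusted p = 0.0299), and it was not called without TEC control 2 (0.121), control 3 (0.0622), RIPC 1 (0.0543), RIPC 2 (0.0645) or RIPC 3 (0.0519), nor with 1 mean per cell type (-4.63, 0.192).

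Per transcript length, as the deposited TPM, the order of the abundant genes can be compared within a cell type. In PMNs the mean level was 10310 TPM for S100a8, 7622 TPM for S100a9, 6855 TPM for Cd74, 3888 TPM for H2-Ab1, 3882 TPM for Kap, 2569 TPM for Gpx3 and 1974 TPM for Retnlg. In TECs it was 19560.1 TPM for Gpx3, 2079 TPM for Kap, 1304 TPM for Miox and 949 TPM for Slc34a1. Tubular genes thus stood among abundant mRNAs of the PMN libraries, whereas S100a8 had a mean of 0.719 TPM in TECs. The predicted genes Gm10800, Gm21738, Gm10721 and Gm10718 had higher TPM than any of these, but they have near-identical copies between which reads can be split, and their levels are uncertain.

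The comparison was made within each preconditioning group as well. Between the control groups 152 genes (0.602%) differed (124 higher in PMNs, 0.491%, and 28 higher in TECs, 0.111%), and between the RIPC groups 261 genes (1.03%) differed (129 higher in PMNs, 0.511%, and 132 higher in TECs, 0.523%). Among the markers, S100a8 differed in both (log2 fold change 13.19 and 14.23, adjusted p = 0.00355 and 0.00241), and so did Cd74 (8.92 and 8.74, adjusted p = 0.00961 and 0.00792). Gpx3 had values of -2.95 and -3.10 and passed the threshold between the RIPC groups (adjusted p = 0.0187) but not between the control groups (0.0788). Slc34a1 had values of -2.46 and -3.17 and passed in neither (0.323 and 0.0603). The test of the difference between these contrasts called 0 genes in edgeR, with 2188 genes (8.67%) at an unadjusted p under 0.05, and 916 genes in the Wald test of DESeq2. The counts moved with single libraries. Between the control groups they were 34, 60 and 95 without TEC control 2, 3 and 1. Between the RIPC groups they were 71, 99 and 156 without TEC RIPC 2, 1 and 3. Fits without PMN control 1 or 2 leave a lone library in that group. The filter on low counts is then looser (30688 and 31998 genes tested, against 25241), so their counts are not set beside these.

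Markers of other cell types were measured in the same libraries. Among these lists, which differ in size, the macrophage and dendritic cell list gave the most calls. There 10 of 12 genes were higher in PMNs (median log2 fold change 8.59), and 7 without TEC control 2, against 1.59% of all genes tested. Its summed level was 23688, 32682, 44769.8, 54129 and 21750 CPM in the PMN libraries and 39.9 to 139 CPM in TECs. H2-Ab1, a beta chain of MHC class II, stood at 3597, 7889, 8561, 12325 and 4626 CPM against 5.37 to 42.2 CPM in TECs (8.35 ± 0.70, adjusted p = 2.73e-05). C1qb, a complement component made by tissue macrophages, stood at 1778, 1994, 2844, 3204 and 1360.0 CPM against at most 9.62 CPM (10.05, adjusted p = 0.00339). Adgre1 (F4/80) read 142, 77.5, 609, 381 and 101 CPM (10.48, adjusted p = 0.000372) and Cx3cr1, the fractalkine receptor, 17.5, 43.3, 260.2, 244 and 206 CPM (8.32, adjusted p = 6.73e-05), against at most 0.962 and 0.467 CPM in TECs. Csf1r, the receptor for macrophage colony-stimulating factor, was called (6.86, adjusted p = 0.016) but not without TEC control 1 (0.0533), TEC control 2 (0.0749) or TEC RIPC 2 (0.0708), nor with an offset for transcript length (4.73, 0.11). The ratio of this list's summed CPM to that of the neutrophil lists was 0.419, 1.21, 1.35, 1.72 and 1.45 in the PMN libraries, so that it exceeded 1 in 4 of 5, on a scale that is not corrected for transcript length. The part of such RNA in the genes called higher in PMNs was not tested.

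Of 5 monocyte genes 3 were higher in PMNs (1 without PMN control 1 and TEC control 2), among them Ly6c2 (10.01, adjusted p = 0.00106). Over all genes tested the share was 1.59%. Of 6 tested B cell genes Cd79b and Ighm were called (11.58 and 6.29, adjusted p = 0.0453 and 0.0322), and Cd79b had 0 reads in 2 PMN libraries and in all TEC libraries. Cd79b was not called without PMN control 1, RIPC 2 or RIPC 3 or without any of the TEC libraries (0.0603 to 1). The call of Ighm was lost without TEC control 2 (0.155), control 3 (0.0888), RIPC 2 (0.0822) or RIPC 3 (0.0729). Of 3 tested platelet genes Pf4 (platelet factor 4) was called (10.37, adjusted p = 0.00947, and 0.0608 without TEC control 2). Of 9 T and NK cell, 4 erythroid, and 2 eosinophil, basophil and mast cell genes tested, 0 were called in edgeR (5 at an unadjusted p under 0.05, 3 in DESeq2), and Prg2, Epx and Siglecf, which mark eosinophils, had 0 reads in all 11 libraries.

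Of 38 tested genes of other renal cells, in lists for the loop of Henle and distal tubule, collecting duct, podocyte, endothelium, and fibroblast and pericyte, 0 were called in edgeR, 9 had an unadjusted p under 0.05 and 6 were called in DESeq2. Some were high in single PMN libraries. Umod (uromodulin) of the thick ascending limb read 33.8, 4816, 575, 310.3 and 132 CPM in PMNs and 102, 166 and 1024 CPM in TECs (1.49, adjusted p = 0.372, and -1.61 without PMN control 2). The high library was control 2. The summed podocyte list was 2316 CPM in RIPC 3 and 34.6 to 182 CPM in the other PMN libraries.

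**Figure D3:**
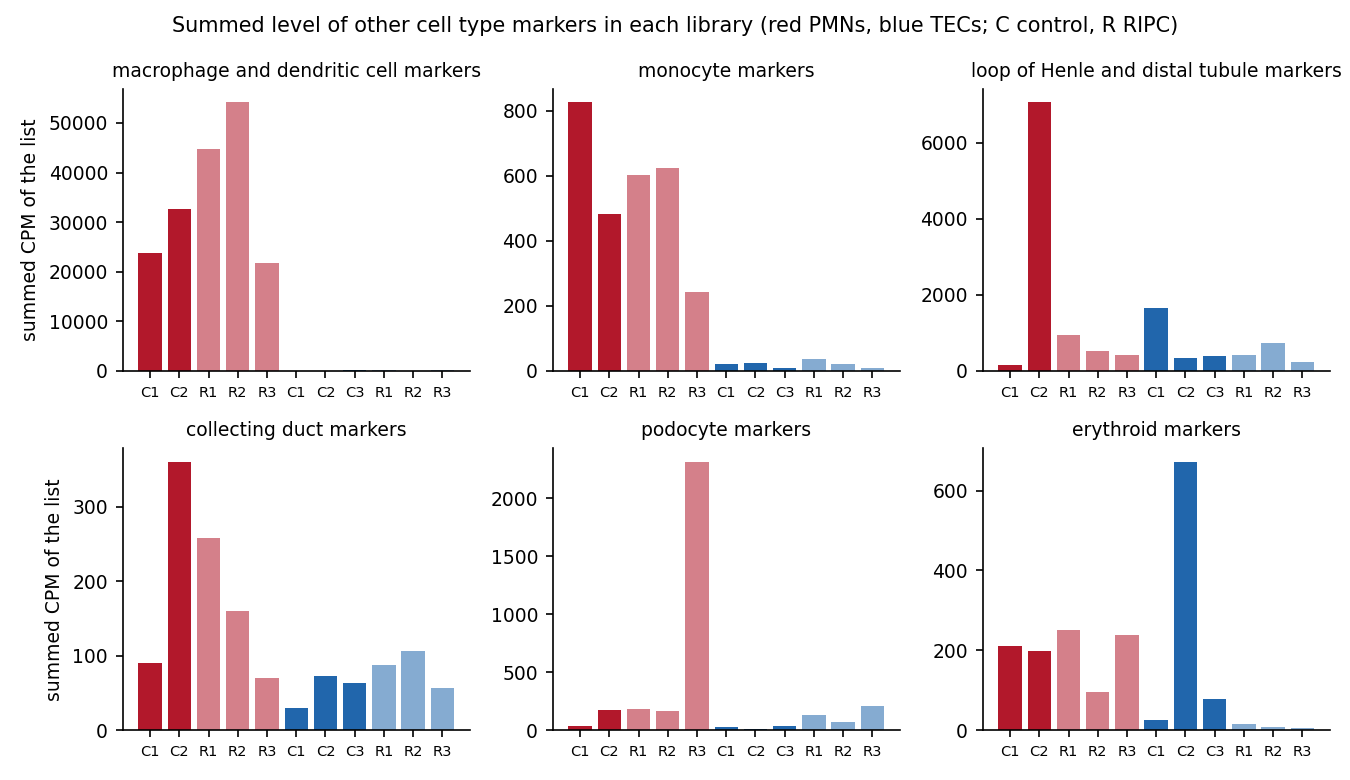
Summed CPM of 6 marker lists of other cell types in each library (red PMNs, blue TECs, dark control, pale RIPC), 1 bar per library and a linear axis from 0 in each panel. Macrophage and dendritic cell markers reach 21750 to 54129 CPM in PMNs, and loop of Henle and podocyte markers peak in PMN control 2 and PMN RIPC 3.

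Tubular RNA in the PMN libraries was then measured against its level in TECs. The summed level of the 67 tested tubular genes in the PMN libraries was 4.38%, 33.4%, 17.9%, 16.3% and 9.04% of the mean over TEC libraries (16.2 ± 11.1%, SD, n = 5). Control 2 held the most and control 1 the least. The median over genes followed the same order, at 4.64%, 34.4%, 17.0%, 11.7% and 8.48%, so that the sum did not rest on Gpx3 alone. With deposited TPM in place of CPM, the mean of the summed level was 24.3 ± 15.0% (SD). Per gene, the mean over PMN libraries was under 1% of the TEC mean for 1 gene (Cyp24a1, 0.573%), 1 to 10% for 18 genes and at least 10% for 48 genes, with a median of 15.0%. Among the genes of the list with the highest levels in PMNs were Gpx3 at 12.0%, Kap at 177%, Slc34a1 at 13.9% and Acsm2 at 20.7% of their TEC mean. Within the lists the mean share ran from 0.573% to 240%, with Krt8 at 3.00%, so that it was not the same for every gene. Prodh2 (1.40%) and Angptl4 (0.0606%) are outside these lists. They were named by rules that ask for PMN libraries below all TEC libraries, so their low shares are no measure of carry-over. For genes of at least 100 CPM in TECs (49 genes) the medians per library were 3.93%, 24.7%, 17.0%, 12.0% and 8.48%. Mitochondrially encoded reads, which are abundant in proximal tubule, made up 2.37%, 13.0%, 5.74%, 5.81% and 3.70% of reads in the PMN libraries against 18.8 to 29.1% in TECs. The libraries with most and least mitochondrial reads were those with most and least tubular RNA, and whether both come from the same source was not tested.

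Neutrophil RNA in the TEC libraries was lower. The summed level of the 58 tested neutrophil genes was 2.56 to 5.13% of the PMN mean (3.23 ± 0.959%, SD, n = 6), highest in TEC control 1, but few genes made up this sum. The median over genes was 0 to 0.0871% in the 6 libraries, and 20 to 34 of the 58 genes had 0 reads in a library. Per gene, 8 genes had 0 reads in all TEC libraries, 39 genes (these 8 included) had a mean under 1% of the PMN mean, 11 lay between 1 and 10%, and 8 at 10% or more. The 5 genes with the highest levels in TECs were Cyba (70.8% of the PMN mean), G0s2 (34.5%), Msrb1 (87.6%), S100a11 (11.1%) and Mxd1 (5.54%). None of these 5 is restricted to neutrophils, and S100a8 (0.00937%), S100a9 (0.0117%) and Ly6g (0 reads) were far below them. Other genes of the neutrophil lists were not that low in TECs. Cebpa stood at 127% of the PMN mean, Prtn3 at 19.9% (in TEC control 1 alone), Tlr4 at 19.2%, Cxcr2 at 13.0% and Ms4a3 at 9.84%.

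**Figure D4:**
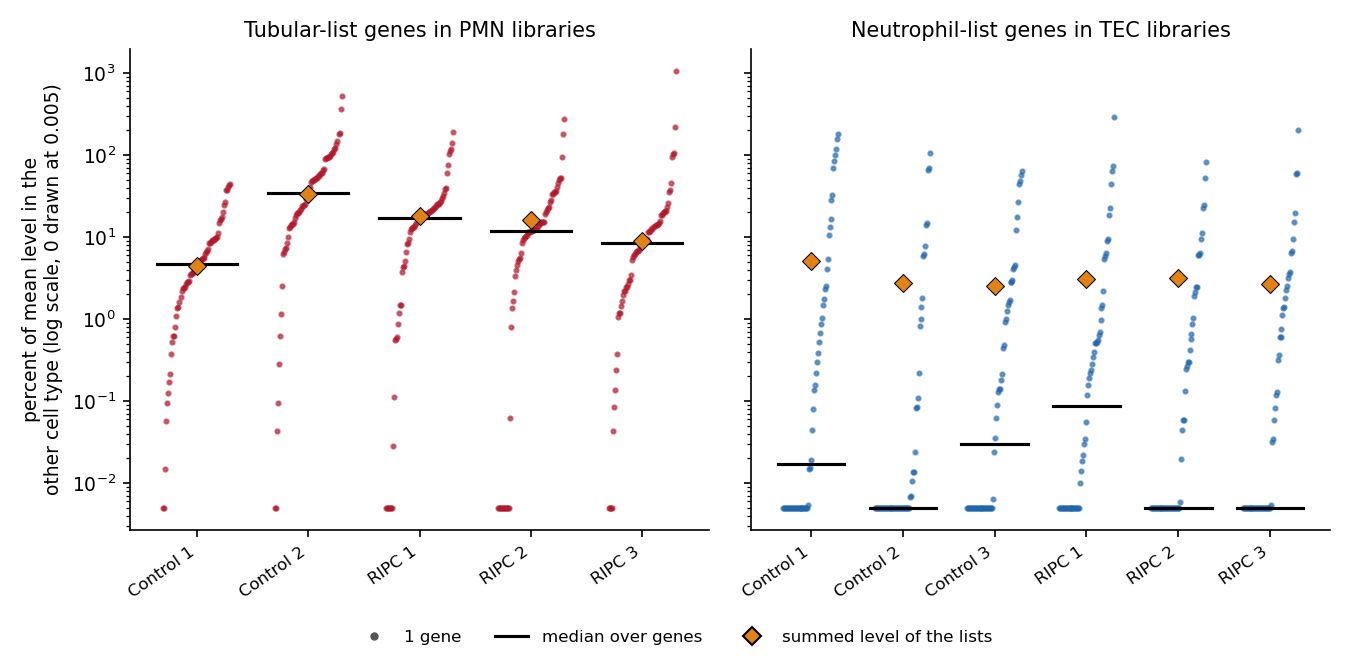
Level of each tubular-list gene in PMN libraries (left) and of each neutrophil-list gene in TEC libraries (right), as a percent of its mean in the cell type it marks, on a log axis with 0 drawn at 0.005. Points are genes, lines the medians over genes and diamonds the summed level, which reaches 33.4% for tubular genes in PMN control 2 and 5.13% for neutrophil genes in TEC control 1.

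**Figure D5:**
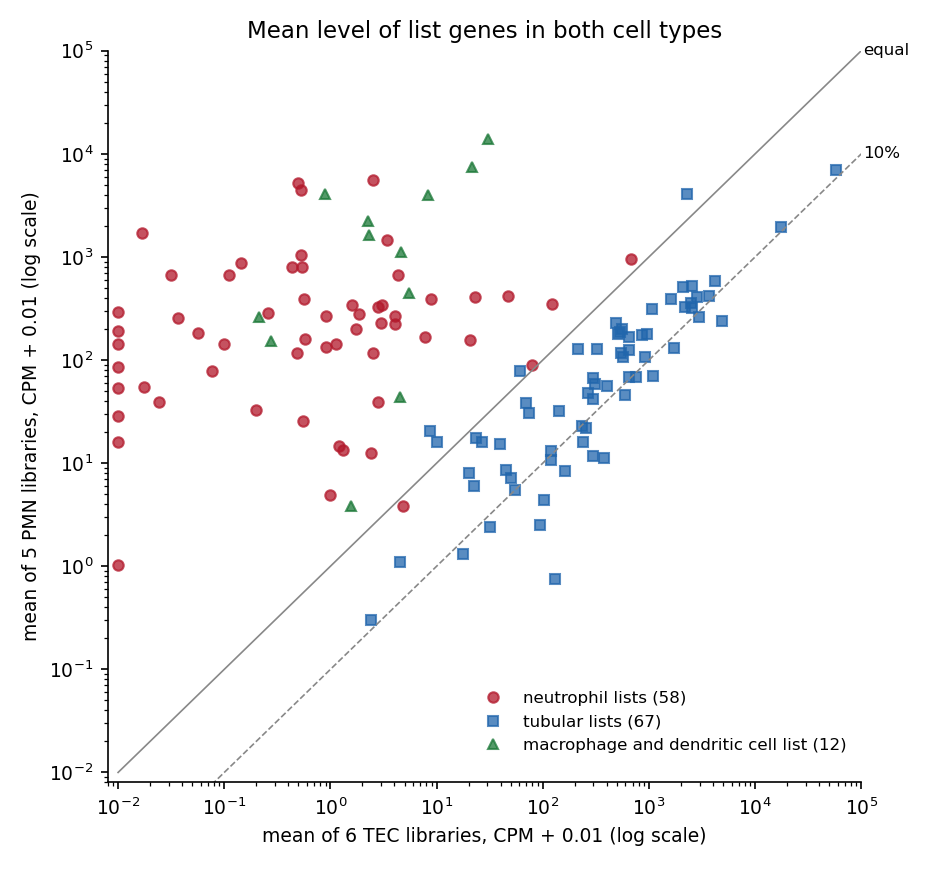
Mean CPM plus 0.01 of each tested gene of the neutrophil, tubular, and macrophage and dendritic cell lists in the 6 TEC libraries (horizontal) and the 5 PMN libraries (vertical), both on log axes, with lines of equality and of 10% of the TEC level. Most tubular genes lie between these lines or near the lower one, whereas macrophage genes lie with the neutrophil genes at the upper left.

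To see where the sham libraries differed from those after ischemia-reperfusion injury (IRI, clamping of the renal pedicles, with the control procedure or RIPC), both were placed on a common scale of all 21 libraries. Tubular RNA in PMNs was 4.30 to 31.7% of the sham TEC mean after sham surgery and 2.68 to 4.15% after IRI (5 libraries each). The TEC libraries differed as well, with tubular lists at 96088 to 146212 CPM after sham surgery and 27102 to 88009.5 CPM after IRI. Relative to the TEC mean of the same surgery, tubular RNA in PMNs was 6.83 to 10.6% after IRI, which lies within the sham range. Macrophage and dendritic cell markers summed to 20873 to 51929 CPM in sham PMNs and 2646 to 6972 CPM in IRI PMNs, and Cd74 alone to 8461 to 19478 CPM and 1169 to 3455 CPM. S100a8 overlapped, at 2375 to 9717 CPM and 3099 to 9308 CPM, while the neutrophil lists summed to 14403 to 54182 CPM and 54184 to 91034 CPM. These sums are descriptions of levels. The test of the difference between the PMN and TEC contrasts of sham surgery and IRI called 0 of 31769 genes in edgeR, with 3102 (9.76%) at an unadjusted p under 0.05, and 2395 genes in DESeq2. For Cd74 the difference of the contrasts was 4.99 (adjusted p = 0.31), for S100a8 4.99 (0.193) and for Retnlg 7.95 (0.112). These differences also take in the TEC libraries. There S100a8 stood at 0 to 2.19 CPM after sham surgery and 0.830 to 25.7 CPM after IRI, and Cd74 at 0.206 to 59.7 CPM and 0.338 to 891 CPM. Neutrophil lists in TECs were 2.53 to 5.15% of the sham PMN mean after sham surgery and 2.39 to 4.96% after IRI.

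Promoters of genes that defined PMNs were read from RefSeq (GRCm38.p6). They are shown for S100a9, Retnlg and Mmp8, which were picked by hand, and not by a rule, among genes with almost no reads in TECs. Others, such as Ly6g and Trem1 with 0 reads there, are not shown. The matches in the printed sequences are therefore examples and no measure of how common the letters are. Each sequence holds the 250 bases before the RefSeq start, 5′ to 3′ on the strand of the gene, at chr3:90695722-90695971 (minus strand) for S100a9, chr16:48872358-48872607 (plus) for Retnlg and chr9:7558179-7558428 (plus) for Mmp8. Capitals mark matches, on either strand, to the letters TTGCNNAA (C/EBP) and GAGGAAG (PU.1).
S100a9: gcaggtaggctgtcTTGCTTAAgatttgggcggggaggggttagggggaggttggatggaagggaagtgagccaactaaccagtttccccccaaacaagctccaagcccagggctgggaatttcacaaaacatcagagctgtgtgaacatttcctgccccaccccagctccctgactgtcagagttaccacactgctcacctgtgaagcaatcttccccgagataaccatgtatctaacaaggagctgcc
Retnlg: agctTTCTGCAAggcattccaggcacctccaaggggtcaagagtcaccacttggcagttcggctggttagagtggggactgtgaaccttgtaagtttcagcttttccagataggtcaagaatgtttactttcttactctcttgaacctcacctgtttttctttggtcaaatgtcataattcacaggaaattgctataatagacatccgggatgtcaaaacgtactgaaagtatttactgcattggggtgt
Mmp8: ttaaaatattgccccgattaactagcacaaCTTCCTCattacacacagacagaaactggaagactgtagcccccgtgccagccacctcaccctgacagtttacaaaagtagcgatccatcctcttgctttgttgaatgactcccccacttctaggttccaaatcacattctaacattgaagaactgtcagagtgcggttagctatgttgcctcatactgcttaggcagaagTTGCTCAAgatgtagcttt

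The C/EBP letters began 236 bases before the start of S100a9, 246 before that of Retnlg and 19 before that of Mmp8. Mmp8 also held the PU.1 letters at 220 bases. A match is a run of letters and not a bound site. Over windows of 300 bases (250 before and 50 after the start), RefSeq windows were matched for 296 of the 401 genes higher in PMNs (362 windows) and for 362 of the 463 genes higher in TECs (468 windows). The PU.1 letters were in 25.7% of the PMN windows, 13.0% of the TEC windows and 13.4% of the windows of all genes tested, against 13.6% of all 32851 promoter windows. The C/EBP letters were in 13.3%, 9.40% and 9.93% (10.8% of all windows). The HNF4 letters CAAAGTC were in 8.01%, 7.05% and 4.32% (4.44%), and TATAAA in 17.4%, 11.1% and 10.8% (13.6%). These shares are descriptions with no test, and windows of 1 gene share sequence.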

How the data were processed

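Poly(A) RNA was copied to full-length cDNA, amplified by PCR and sequenced as single-end reads on a nanoball platform. The authors trimmed the reads and quantified them with Salmon (submitters' notes: Trim Galore 0.6.4, Salmon 1.0.0, mm10). The deposited values per transcript are estimated counts, not normalized, TPM, and effective lengths, in 2 files per library whose difference the labels do not state. Estimated counts of both files were added, summed over transcripts of a gene (Gencode M21 of GRCm38, where the methods name a later release; 139864 of 140748 transcripts matched, and 0.195 to 0.255% of reads had no gene) and rounded. As in the study, sex-chromosome and mitochondrial genes (3717 of 54123) were left out of tests.

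PMNs and TECs were compared by edgeR's quasi-likelihood test (version 4.0.16 under R 4.3.3), with 1 mean per group, TMM normalization, filterByExpr and Benjamini-Hochberg adjusted p under 0.05 over all genes tested. The contrast was the mean of the PMN groups minus that of the TEC groups. The study's own tool, DESeq2 (1.42.0), was run as an alternative. CPM are TMM-normalized, TPM were summed per gene as deposited, and effective lengths served 1 alternative as an offset. The test was checked on simulated counts with few changed genes and with base levels averaged over both cell types. Changed genes were called in the right direction, but many were missed. Unchanged genes were called more often than the adjusted threshold states where each gene had its own spread. Most calls of DESeq2 were unchanged genes there, a share that depends on how many genes change.

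The libraries, lists and tests were chosen with earlier results of these data known, and 4 lists (cytokines, immediate early genes, clock, peroxisome) after values of these libraries had been seen. Named were the 4 markers, any list gene, the 10 most abundant genes per direction (by TPM, no overlap, absolute log2 fold change of at least 5), in each direction the 5 lowest adjusted p-values among genes without overlap, and the 5 list genes highest in the other cell type. Some of these genes, and 1 planned promoter motif, are not reported here.

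Replicate numbers were shared between groups. Deviations from group means correlated at -0.0232 to 0.129 (median 0.0176) between same-numbered libraries. Between libraries of other numbers the values were -0.111 to 0.0609 (median -0.0091). The ranges overlapped and the values were small, so the numbers were not taken to pair the libraries in the main fit. Weak pairing was not tested, and a fit with the number as a block is among the alternatives.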

Additional observations from a re-analysis of the deposited data

Results flagged for a closer look

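Of 60 values checked for a library far from the rest of its cell type by Dixon's criterion, 10 met it. Chance meets this criterion in about 1 of 20 groups if values are normally distributed. The flagged values were not log-transformed and each was the highest of its cell type, so skewed levels may meet it more often. In TEC control 1, S100 and cytosolic neutrophil genes summed to 656 CPM (next library 207), secondary and tertiary granule genes to 67.9 CPM (next 11.9), loop of Henle and distal tubule markers to 1668 CPM (next 746), and S100a8 itself stood at 2.30 CPM (next 0.279). Relative to PMN means, the highest genes of these neutrophil lists there were Msrb1 (180%), G0s2 (102%), S100a11 (28.4%) and Lcn2 (13.4%). Retnlg, Mmp8 and Wfdc21 had 0 reads in this library. S100a8 and S100a9 together stood at 2.38 CPM in TEC control 1 and at 2.88 CPM in TEC RIPC 3. In PMN control 2, loop of Henle and distal tubule markers summed to 7063 CPM (next 939) and epithelial junctions and keratins to 1267 CPM (next 338). In PMN RIPC 3, podocyte markers summed to 2316 CPM (next 182), eosinophil, basophil and mast cell markers to 6.10 CPM (next 1.57), and the 10 most abundant genes took 39.2% of reads (next 24.98%). In TEC control 2, erythroid markers summed to 672 CPM (next 77.3).

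X-linked genes were outside the tests, and 2 members of the lists are X-linked with clear differences. Cybb, the catalytic gp91phox subunit of the NADPH oxidase, had a mean 136-fold higher in PMNs (log2 fold change 7.05, adjusted p = 0.0106 in edgeR with these genes included). Cldn2, a claudin of the proximal tubule, had a mean 13.4-fold higher in TECs (-3.84, adjusted p = 0.00391).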

How the results depend on the processing

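The number of genes that differed between PMNs and TECs was 864, and it was 1946 without a filter on low counts, 1312 with at least 10 counts in every library of a cell type, 3542 in the Wald test of DESeq2, 495 without PMN control 1 and TEC control 2 (chosen after seeing the data), and 424 to 1235 with each library left out in turn. In the same order of settings, the count between the control groups (152) was 661, 277, 2019 and 67, and 34 to 415 with a library left out. Between the RIPC groups (261) it was 971, 527, 2018 and 505, and 71 to 867. For the difference between RIPC and control (0) it was 155 without a filter, 1 with at least 10 counts, 3 with file 2 alone, 916 in DESeq2 and 0 to 27 with a library left out. For the difference between sham surgery and IRI (0) it was 722, 52, 1 with either file alone, and 2395 in DESeq2. Neutrophil genes in TECs were at 3.23% by their sum and 0.0232% by the median over genes, and at 2.85 to 3.97% with a library left out. Tubular genes in PMNs were at 16.2% by their sum, at 11.9 to 19.2% with a library left out, and at 24.3% with deposited TPM in place of CPM. With the replicate number as a block 769 genes differed (680 of them among the 864), and 143, 275, 0 and 0 in the other comparisons. The number of tubular-list genes higher in TECs (24) was 46 in the Wald test, and that of other cell types higher in PMNs (16) was 26 in the Wald test and 9 without PMN control 1 and TEC control 2. Among 81 named genes followed, 5 reversed direction in 6 fits, each without a call as reported. They were Kap and Umod without PMN control 2 (ranges over libraries left out -0.30 to 1.26 and -1.61 to 2.19), Tlr2 and Tlr4 without PMN control 1 (-1.70 to 10.03 and -0.87 to 6.32), Tlr4 also without PMN control 1 and TEC control 2 (-1.12), and Prom1 with an offset for transcript length (0.19). Of 65 named genes called, 41 kept their call in every alternative run. Without PMN control 1 and TEC control 2 the calls of 18 were lost, and further calls were lost with the fit to all 21 libraries (Cd79b, Cyp24a1, Dusp1, Gatm and Syne4, adjusted p = 0.053 to 0.0889), a fold change threshold of 1 (Cd79b, Dusp1, Hnf4a and Junb, 0.0571 to 0.163), the replicate block (Cd79b, Dusp1 and Ighm, 0.0519 to 0.0762), 1 mean per cell type (Ighm, 0.0525) and DESeq2's size factors (Hnf4a, 0.0514). DESeq2's size factors moved the median log2 fold change over all genes by 0.108. Leaving out 1 PMN control library leaves a lone library in that group, which is then assumed to vary like the others. It also loosens the filter on low counts, with 30688 or 31998 genes tested against 25241. The highest gene counts with a library left out come from these fits, also for contrasts that do not hold the PMN control group. With a coefficient of variation of 1.65 and 2 to 3 libraries per group, genes without a call may still differ, and depth limits levels under 0.0684 to 0.162 CPM.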

Other observations

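The following 4 lists were chosen after values of these libraries had been seen, and their counts are descriptions. Over all genes tested, 1.59% were higher in PMNs and 1.83% higher in TECs. Of 15 cytokines and chemokines, 11 were higher in PMNs, with a median log2 fold change of 10.04. Il1b (interleukin-1 beta) stood at 1776, 1659, 2144, 1583 and 1205 CPM in PMNs against at most 2.59 CPM in TECs (12.76, adjusted p = 7.91e-05 in edgeR). Osm (oncostatin M) stood at 468, 309, 242, 154 and 61.9 CPM with 1 read in the TEC libraries together, and Ccl6 at 1507, 1008, 1320.1, 799 and 304 CPM against at most 3.69 CPM. Il6 was seen among PMNs in control 1 alone (21.7 CPM). Of 10 immediate early genes, which cell isolation is known to induce, 2 were higher in PMNs, Junb (2.13, adjusted p = 0.0216) and Dusp1 (1.79, adjusted p = 0.0301). The call of Junb was lost without TEC control 3, RIPC 1 or RIPC 2 (0.0599 to 0.0704), and that of Dusp1 without PMN RIPC 2 or without TEC control 1, control 2, RIPC 1, RIPC 2 or RIPC 3 (0.0519 to 0.0929). Fos stood at 719.9 to 1802 CPM in PMNs and 354 to 1058 CPM in TECs (0.80, adjusted p = 0.304), so that both cell types held it at a high level.

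Of 12 genes of peroxisomes and fatty acid oxidation, 8 were higher in TECs, with a median log2 fold change of -2.77, but 4 without TEC control 2 or TEC RIPC 2, 5 without any other TEC library and 1 without PMN control 1 and TEC control 2. Pex11a, which promotes peroxisome division, stood at no more than 0.421 CPM in PMNs against 21.01 to 133 CPM in TECs (-8.82, adjusted p = 0.00717, and 0.0504 without PMN control 1 and TEC control 2). TEC control 1 held 14957 CPM of this list and the other TEC libraries 4271 to 6839 CPM. Of 12 clock genes, Nr1d1 alone was called (0 genes with 1 mean per cell type, where Nr1d1 had -2.65 with an adjusted p of 0.281), and Per1 had the opposite sign without passing the threshold (1.62, adjusted p = 0.28).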
